A study of Rattus norvegicus with 14 samples.

Results

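The genes described here encode the conjugation enzymes of rat liver: glutathione S-transferases (Gst and the microsomal Mgst), UDP-glucuronosyltransferases (Ugt1 and Ugt2) and sulfotransferases (Sult). Every probe set whose single platform gene symbol begins with Gst, Mgst, Ugt1, Ugt2 or Sult was taken, which gave 58 of the 8799 probe sets on the array and 33 of the 4736 genes that a probe set with 1 symbol names. The RNA was total RNA of the left lateral lobe of the liver, hybridised to Affymetrix rat oligonucleotide arrays in 3 diet groups. Arrays 1 to 5 came from rats on a magnesium-supplemented diet (Mg++ supplemented in the labels), arrays 6 to 10 from a standard diet, and arrays 11 to 14 from a magnesium-deficient diet (Mg++ deficient). The labels give no strain, sex, age, genotype, magnesium content or feeding time, and no agent other than the diet. Nor do they state that every array had its own animal, so a p-value here reflects no more than the spread among these 14 arrays, which may be technical.

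Conjugation enzymes attach a polar group to lipophilic compounds so that these can leave the cell and pass into bile or urine. Glutathione S-transferases join glutathione to electrophiles, UDP-glucuronosyltransferases transfer glucuronic acid from UDP-glucuronate to bilirubin, steroids, bile acids and drugs, and sulfotransferases transfer sulfate from the donor PAPS to phenols, steroids and bile acids. Hepatocytes hold large amounts of many of these enzymes, though not of all. Many of the genes are known to respond to xenobiotic-sensing nuclear receptors or to the oxidative stress factor Nrf2.

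No conjugation enzyme probe set differed between diets after adjustment over all probe sets tested. The 3 probe sets of Gsta3 all had higher means on both altered diets than on the standard diet, by 0.74 to 1.36 on the log2 scale, and deficient minus supplemented was -1.46 for Ugt1a5. Both Gsta1 probe sets with the smallest p-values lay 0.39 higher on the supplemented diet than on either other diet. All 9 tested Sult2 probe sets and all 8 tested Ugt2 probe sets had their lower mean on the deficient diet when it was set against the supplemented diet. Most of the Sult2 probe sets share sequence, so they are not separate measurements. The signs of RNA quality on the arrays also went along with diet, and several of the differences above were smaller once those signs were in the model, as the values below show. With the Gapdh ratio, a sign of this kind, in the model neither Sult2 nor Ugt2 was lower throughout. Nor was Ugt2 when arrays were centred on their median.

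Signals are given as log2 of the deposited probe set intensity after quantile normalisation between arrays, with a floor at 1.97 (3.93 units), the pooled 20th percentile. A probe set was tested when its mean over the 14 arrays was above 3.83 on that scale (14.3 units), the pooled 40th percentile, and 5132 probe sets passed. Array medians as deposited ran from 18.0 to 34.4 units. Of 8 hepatocyte marker genes, 7 were on the array, all were tested and none was at the floor throughout, and their summed signal was 31300 to 37400 units on the supplemented arrays, 32800 to 36500 on the standard arrays and 33200 to 35100 on the deficient arrays. In whole liver, fewer cells of a type and less RNA per cell cannot be told apart. The log2 ratio of the 3' to the 5' Gapdh control signal, which is higher where RNA is degraded or incompletely copied, averaged 0.71 ± 0.49 (SD, n = 5) over the supplemented arrays. It averaged 1.64 ± 0.61 (SD, n = 5) over the standard arrays and 1.84 ± 0.65 (SD, n = 4) over the deficient arrays. Supplemented arrays lay below standard arrays by 2-sided exact permutation test (p = 0.0159, adjusted 0.0477 over 6 array comparisons) and below deficient arrays (exact p = 0.0159, adjusted 0.0477). The beta-actin ratio was 0.96, 1.52 and 1.85 in the same order of diets, and its deficient minus supplemented difference of 0.89 did not pass after adjustment (exact p = 0.0476, adjusted 0.0952). Supplemented array 5 stood apart by its lower rank correlation with the other arrays, and standard array 10 and deficient array 13 by Gapdh ratios of 2.65 and 2.68. Each result was therefore also computed with either ratio as a covariate and without those 3 arrays.

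The 58 probe sets covered Gst, Mgst, Ugt and Sult genes. The alpha class was represented by Gsta1 and Gsta3 with 3 probe sets each and Gsta4 with 2, and all of these were tested. Of the mu class, Gstm1 had 3 probe sets, Gstm2 2 and Gstm7 1, all tested, while both Gstm5 probe sets were at the floor on all 14 arrays. The microsomal enzymes Mgst1, Mgst2 and Mgst3 had 1 tested probe set each, and Gstk1, Gsto1, Gstp1 and Gstt2 had 2 each and Gstt1 1, again all tested. Among sulfotransferases, Sult1a1 and Sult1c3 had 2 tested probe sets each and Sult1b1, Sult1c2a and Sult5a1 had 1, whereas the Sult1d1 probe set was at the floor on 8 arrays and was not tested. Sult2a1 had 4 probe sets, of which 1 was at the floor on all arrays, and Sult2a2 and Sult2a6 had 3 each. The Ugt1 group was down to Ugt1a5, tested, and the pseudogene Ugt1a9-ps, not tested, because probe sets that match several Ugt1a forms carry several symbols. Ugt2b had 3 tested probe sets, Ugt2b35 2, and Ugt2b1, Ugt2b15 and Ugt2b37 1 each, while Ugt2a1 and Ugt2b7 had 1 untested probe set each. In all, 51 probe sets of 28 genes were tested and 7 were not.

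Upstream sequences of the genes that the results turn on are shown here. Gsta1 and Gsta3 are close relatives, with deficient means close to the standard means for Gsta1 and higher for Gsta3. That contrast was not tested. The Sult2a genes are so alike that one probe set can read several of them. Each sequence is the RefSeq window on the rat build GRCr8 from 250 bases before to 50 after the gene's start. It is written 5' to 3' along the gene. Gsta1 lies at chr9:31216483-31216782 on the minus strand and Gsta3 at chr9:31154739-31155038 on the plus strand. Sult2a1, at chr1:84638898-84639197, Sult2a2, at chr1:85104483-85104782, and Sult2a6, at chr1:84097759-84098058, all lie on the minus strand. Capitals mark the core of the antioxidant response element, TGACNNNGC, searched on both strands, and the TATA box letters TATAAA, which appear as TTTATA where they are on the other strand.
Gsta1: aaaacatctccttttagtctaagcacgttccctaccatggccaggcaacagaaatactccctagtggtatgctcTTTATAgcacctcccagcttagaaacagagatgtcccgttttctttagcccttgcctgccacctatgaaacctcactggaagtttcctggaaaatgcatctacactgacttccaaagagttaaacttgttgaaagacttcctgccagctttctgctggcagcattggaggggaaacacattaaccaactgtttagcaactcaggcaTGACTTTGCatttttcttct
Gsta3: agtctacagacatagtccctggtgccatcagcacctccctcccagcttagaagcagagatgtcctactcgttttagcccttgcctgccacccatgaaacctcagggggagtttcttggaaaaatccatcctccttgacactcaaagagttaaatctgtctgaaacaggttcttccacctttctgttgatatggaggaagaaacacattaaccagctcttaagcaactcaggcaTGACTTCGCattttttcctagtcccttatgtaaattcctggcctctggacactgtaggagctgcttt
Sult2a1: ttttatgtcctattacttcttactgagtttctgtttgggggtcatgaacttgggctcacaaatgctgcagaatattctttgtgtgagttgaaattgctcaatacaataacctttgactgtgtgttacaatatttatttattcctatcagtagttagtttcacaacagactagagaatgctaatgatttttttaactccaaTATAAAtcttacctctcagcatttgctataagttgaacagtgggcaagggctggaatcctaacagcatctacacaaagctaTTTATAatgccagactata
Sult2a2: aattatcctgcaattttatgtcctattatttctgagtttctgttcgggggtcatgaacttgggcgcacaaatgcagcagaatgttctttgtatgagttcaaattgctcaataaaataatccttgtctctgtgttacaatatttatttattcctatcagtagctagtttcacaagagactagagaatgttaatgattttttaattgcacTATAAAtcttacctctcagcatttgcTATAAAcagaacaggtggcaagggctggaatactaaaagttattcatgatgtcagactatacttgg
Sult2a6: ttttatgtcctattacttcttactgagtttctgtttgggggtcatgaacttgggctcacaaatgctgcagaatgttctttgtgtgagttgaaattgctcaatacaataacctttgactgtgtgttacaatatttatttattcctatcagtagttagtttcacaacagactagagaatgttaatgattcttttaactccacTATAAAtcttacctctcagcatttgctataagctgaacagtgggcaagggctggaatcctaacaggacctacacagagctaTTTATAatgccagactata

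The Sult2a1 and Sult2a6 windows were 97.3% identical in a global alignment, and the Sult2a2 window was 79.9% identical to the Sult2a1 window and 80.8% to the Sult2a6 window. The Gsta1 and Gsta3 windows shown were 57.7% identical, at 203 of 352 aligned columns. Each window is 300 bases and gap columns count in that share, so it understates how alike the paired bases are. The window of the other RefSeq start of Gsta3, at chr9:31166793-31167092 and not shown, was 43.9% identical to the Gsta1 window and held no TGACNNNGC. TGACTTCGC in the Gsta3 window begins at position 234 and TGACTTTGC in the Gsta1 window at position 281, counted from 1 at the 5' end. Both matches directly follow the same letters, agcaactcaggca, and the positions depend on where each gene's start is annotated. RefSeq promoter windows were matched for 27 of the 33 genes, with 28 windows since Gsta3 has a further start. TGACNNNGC was in 5 of those 28 windows (17.9%), those of Gsta1, Gsta3, Gstp1, Gstm5 and Gstm7, and in 12.1% of all 33469 promoter windows. TATAAA was in 9 of the 28 (32.1%) and in 14.2% of all windows. The 9 include the closely alike windows of the 3 Sult2a genes, and matches counted on either strand and at any position. In the Gsta1 and Sult1c2a windows the only match was on the other strand, 176 and 245 bases before the start. These shares were not compared by a test. A match describes these letters and does not show that a factor binds there. By chromosome, all 4 Gstm genes lie on chromosome 2, Gsta1, Gsta3, Sult1c2a and Sult1c3 on chromosome 9, the 3 Sult2a genes on chromosome 1, and the 6 Ugt2b genes with a matched window on chromosome 14 together with Sult1b1 and Sult1d1.

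Over all tested members, limma called 0 of 51 in each of the 3 comparisons at an adjusted p under 0.05, against 0% of all 5132 probe sets for deficient minus standard, 0% for supplemented minus standard and 0.0195% for deficient minus supplemented. The moderated F-test for any difference among the diets also called 0 members, with 0.0195% of all probe sets called. The lowest limma adjusted p of a member was 0.999 for deficient minus standard, 0.479 for supplemented minus standard, 0.285 for deficient minus supplemented and 0.473 for the F-test. At an unadjusted p under 0.05, limma gave 2 members for deficient minus standard (3.92%) against 3.00% of all probe sets. It gave 7 for supplemented minus standard (13.7%), 5 higher and 2 lower, against 8.90%. For deficient minus supplemented it gave 5, all lower (9.8%), against 12.9%, and the F-test gave 5 (9.8%) against 8.96%. Shares this near to the background are no result about the conjugation enzymes.

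Arrays of the deficient and the standard diet did not separate for any of the 51 members, against 1.44% of all probe sets, and the same was true of the supplemented and the standard diet, against 1.81%. Arrays of the deficient and the supplemented diet did not overlap for 2 members (3.92%), a Gsta1 and a Ugt2b35 probe set, both lower on the deficient diet, against 4.95% of all probe sets. The median member difference was -0.05 for deficient minus standard (15 higher, 36 lower), where the median of all probe sets was 0.00. It was 0.15 for supplemented minus standard (34 higher, 17 lower) against -0.02, and -0.21 for deficient minus supplemented (15 higher, 36 lower) against 0.02. With each array centred on its median instead of quantile normalised, the members split 26 higher of 51, 26 of 51 and 27 of 51 in the same order. That scaling moved the median of all probe sets to -0.11 for supplemented minus standard and 0.17 for deficient minus supplemented. Relative to all probe sets the member medians were then 0.12 and -0.15, where quantile normalisation gave 0.17 and -0.23. The 3 comparisons share arrays in pairs, so their values are not independent of one another.

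**Figure D1:**
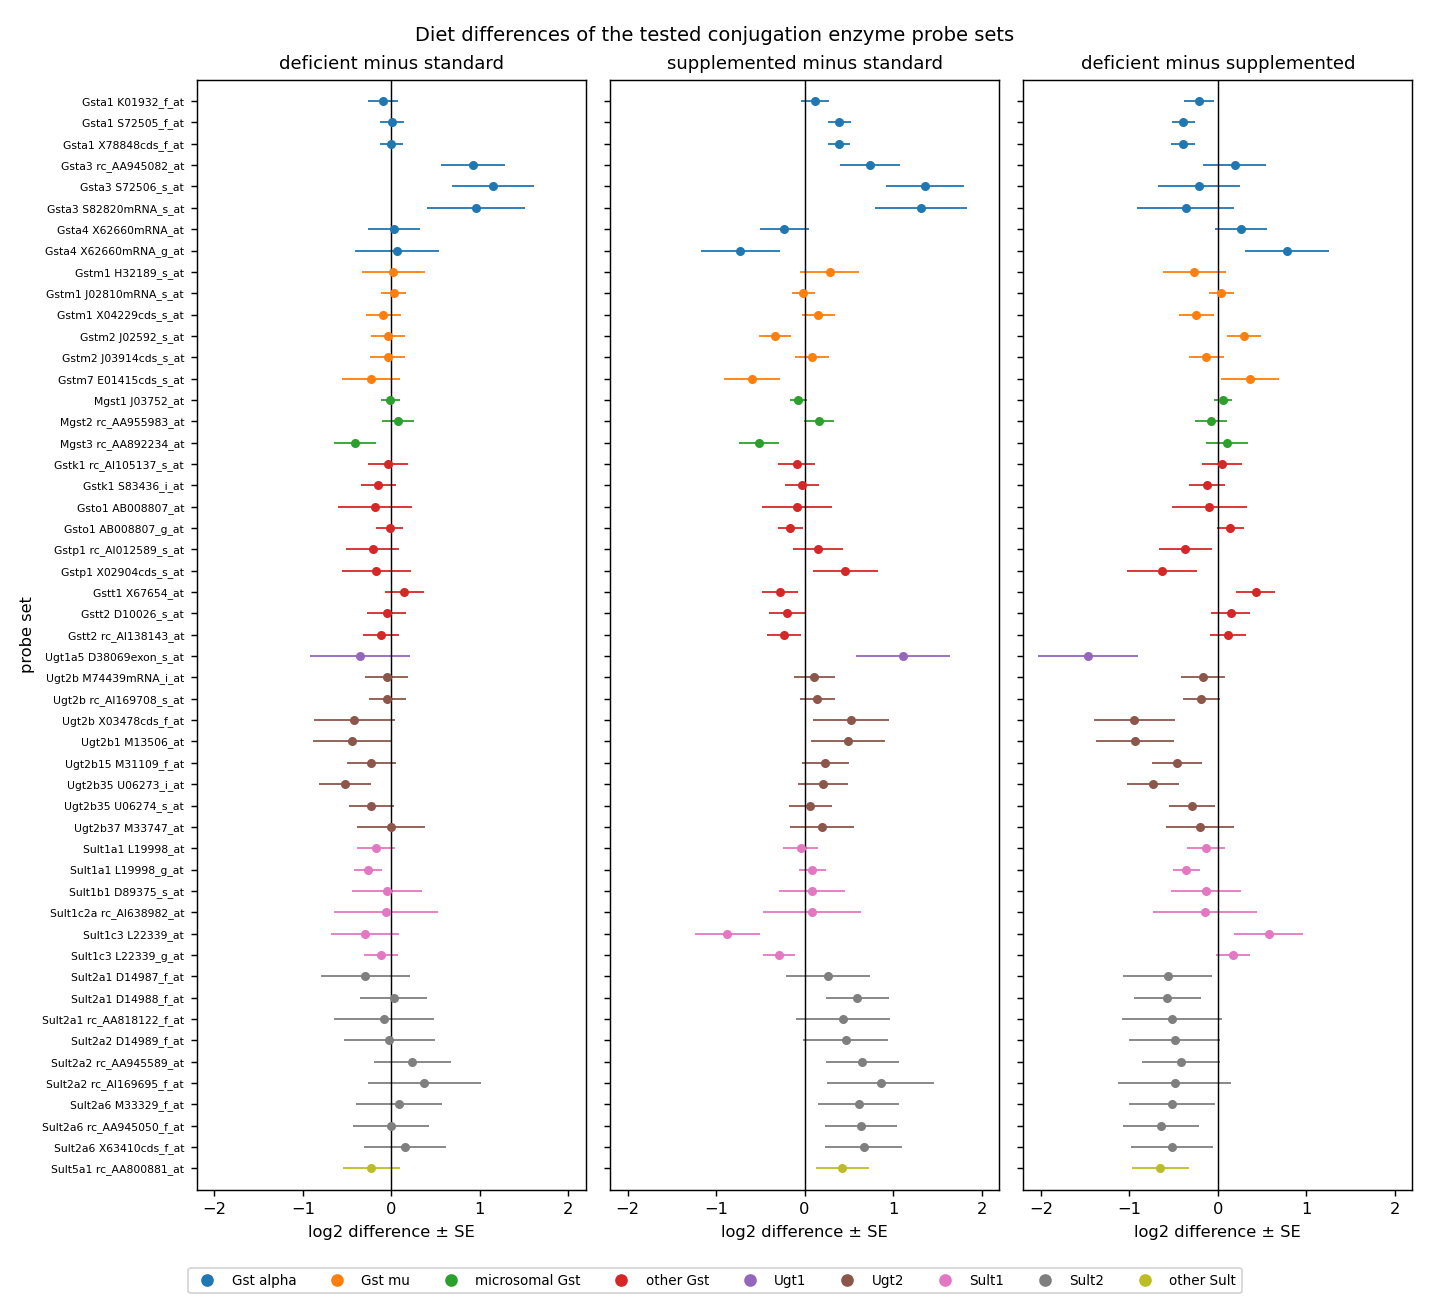
Differences between diets (log2 scale, points) with their limma standard errors (bars) for the 51 tested probe sets, coloured by enzyme group, in 1 panel for each comparison. The 3 Gsta3 points lie to the right in both comparisons with the standard diet, at 0.93, 1.15 and 0.95 for deficient and 0.74, 1.36 and 1.32 for supplemented, and all Sult2 points lie to the left in deficient minus supplemented.

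The spread between arrays of one diet differed between the enzymes. The within-diet SD was 0.48 in the median over the 51 members and 0.39 over all probe sets tested. Mgst1, the abundant membrane-bound glutathione transferase, had the smallest, at 0.15, and a Sult2a2 probe set the largest, at 1.09. By group the median within-diet SD was 0.25 for the microsomal enzymes, 0.32 for the mu class, 0.52 for the alpha class, 0.45 for Ugt2, 0.49 for Sult1 and 0.83 for Sult2. A difference of a given size therefore stood out less among Sult2 probe sets than among microsomal Gst probe sets.

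Gsta3 is an alpha-class transferase known for conjugating reactive epoxides. On probe set S72506_s_at its supplemented arrays 1 to 5 read 5.66, 5.49, 5.77, 5.89 and 7.28, its standard arrays 6 to 10 read 5.29, 3.88, 4.87, 5.77 and 3.47, and its deficient arrays 11 to 14 read 5.98, 5.10, 6.28 and 5.87. Supplemented array 5 was far above the other supplemented arrays, standard arrays 7 and 10 were the lowest of all, standard array 9 lay within the range of both other diets, and standard array 6 within the deficient range. The supplemented mean was above the standard mean by 1.36 ± 0.44 (SE), a 2.57-fold difference (limma adjusted p = 0.479), and the deficient mean by 1.15 ± 0.46 (SE), a 2.22-fold difference (limma adjusted p = 0.999). With the Gapdh ratio in the model the supplemented minus standard difference was 0.73, and without the 3 arrays that stood apart the differences were 0.75 and 0.70.

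Probe set S82820mRNA_s_at of Gsta3 read 9.04, 8.07, 8.29, 9.14 and 9.60 on the supplemented arrays, 8.79, 6.40, 7.42, 8.90 and 6.04 on the standard arrays, and 8.59, 7.63, 8.62 and 9.01 on the deficient arrays. Standard arrays 7 and 10 were again the lowest, and standard arrays 6 and 9 lay among the other diets. The supplemented mean was higher than the standard mean by 1.32 ± 0.52 (SE) and the deficient mean by 0.95 ± 0.55 (SE), with limma adjusted p of 0.499 and 0.999. These came to 0.76 and 0.53 without the 3 arrays that stood apart, the first to 0.57 with the Gapdh ratio in the model, and the second to 0.59 without standard array 10 alone.

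The third Gsta3 probe set, rc_AA945082_at, read 4.63, 4.90, 4.90, 5.21 and 5.43 on the supplemented arrays, 3.87, 3.74, 4.67, 5.48 and 3.63 on the standard arrays, and 5.20, 4.68, 5.86 and 5.09 on the deficient arrays. Here standard array 6 was low and standard array 9 was above every supplemented array. The deficient mean was higher than the standard mean by 0.93 ± 0.36 (SE) and the supplemented mean by 0.74 ± 0.34 (SE), with limma adjusted p of 0.999 and 0.548, and by 0.55 and 0.47 without the 3 arrays. Over the 14 arrays the 3 probe sets correlated with one another at Pearson's r of 0.844, 0.713 and 0.923 (Spearman's rho 0.886, 0.596 and 0.776; permutation p = 0.00021, 0.00461 and 2e-05, adjusted over 30 pairs 0.0009, 0.0106 and 0.0002). Within diets r was 0.773, 0.612 and 0.891, and without the 2 arrays farthest from the median it was 0.655, 0.320 and 0.773. With the Gapdh ratio as a covariate all 3 stayed higher on the deficient than on the standard diet, with a median of 1.12. There limma gave 3 of 3 an unadjusted p under 0.05, but 0 of 3 for supplemented minus standard, at a median of 0.57. These 3 probe sets read 1 gene, and the share of all probe sets in that model is not given here, so the counts are no separate result.

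Gsta1, another alpha-class transferase and a major cytosolic protein of hepatocytes, had deficient means close to its standard means, where those of Gsta3 were higher. No contrast between these genes was tested. Probe set X78848cds_f_at read 11.49, 11.48, 11.58, 11.49 and 11.62 on the supplemented arrays, 11.34, 11.10, 10.75, 11.49 and 11.02 on the standard arrays, and 11.11, 11.05, 11.08 and 11.32 on the deficient arrays. All supplemented arrays were above all deficient arrays, while standard array 9 reached the supplemented range. The supplemented mean was higher than the standard mean by 0.39 ± 0.13 (SE) and the deficient mean differed from the supplemented mean by -0.39 ± 0.13 (SE), each 1.31-fold, with limma adjusted p of 0.479 and 0.285.

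On Gsta1 probe set S72505_f_at the supplemented arrays read 11.11, 11.26, 11.44, 10.99 and 11.48, the standard arrays 10.82, 11.04, 10.82, 11.03 and 10.60, and the deficient arrays 10.99, 11.00, 10.84 and 10.65. Supplemented array 4 lay within the range of both other diets, and the other supplemented arrays were above it. The differences were 0.39 ± 0.13 (SE) for supplemented minus standard and -0.39 ± 0.14 (SE) for deficient minus supplemented, with limma adjusted p of 0.484 and 0.302. The third Gsta1 probe set, K01932_f_at, gave smaller differences of 0.12 ± 0.16 and -0.21 ± 0.17 (SE). These differences moved with the scaling and with RNA quality. Centring arrays on their median gave 0.17 and -0.13 for X78848cds_f_at and 0.17 and -0.12 for S72505_f_at. The Gapdh ratio as a covariate gave 0.24 and -0.21 for X78848cds_f_at and 0.25 and -0.21 for S72505_f_at, and the beta-actin ratio gave -0.23 for X78848cds_f_at in deficient minus supplemented.

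Gsta4, which conjugates the lipid peroxidation product 4-hydroxynonenal, lay between 8.85 and 9.66 on probe set X62660mRNA_g_at on every array but 1. Supplemented array 5 read 6.21 there and 6.51 on the other probe set, X62660mRNA_at, where the remaining arrays ran from 7.37 to 8.40. Supplemented minus standard was -0.73 ± 0.45 (SE) and -0.23 ± 0.28 (SE) on these probe sets, and limma gave adjusted p of 0.651 and 0.824. With the Gapdh ratio as a covariate these differences were 0.09 and -0.20, so the first reversed. Supplemented array 5 also carried the highest Gsta3 signal on 2 of its 3 probe sets, so Gsta3 and Gsta4 went opposite ways there.

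**Figure D2:**
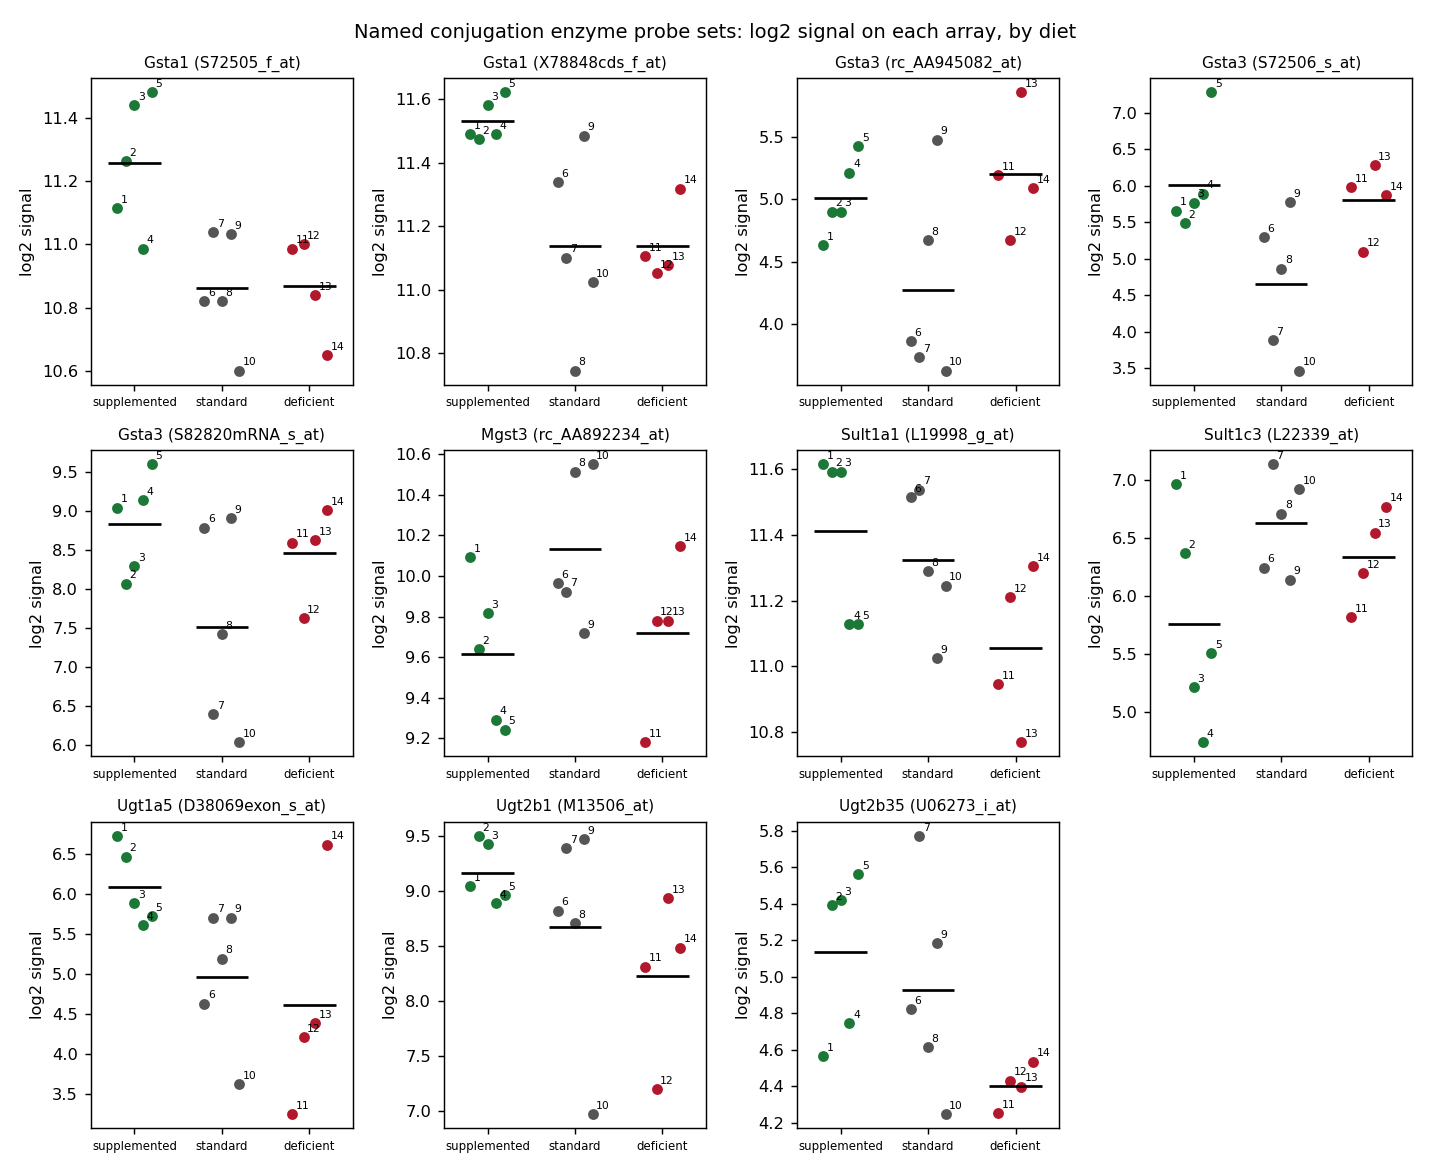
Log2 signal of the 11 probe sets named by the selection rule on each array (points, numbered by array) with the mean of each diet (horizontal line), in 1 panel for each probe set with its own axis. Supplemented and deficient arrays do not overlap for Gsta1 X78848cds_f_at and Ugt2b35 U06273_i_at, and in the 3 Gsta3 panels standard arrays 7 and 10 lie at the bottom.

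The mu-class genes, which encode abundant liver transferases for epoxides and quinones, gave small differences. Of their 6 tested probe sets 2 were higher and 4 lower for deficient minus standard, from -0.23 to 0.03, and none had an unadjusted p under 0.05 in any comparison. Supplemented minus standard ran from -0.59 (Gstm7) to 0.28 (a Gstm1 probe set), with 3 higher and 3 lower. Deficient array 13 held the lowest signal of 4 of these 6 probe sets.

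Among the microsomal enzymes only Mgst3, which is known for leukotriene C4 synthesis and peroxide reduction, gave an unadjusted p under 0.05. It read 10.09, 9.64, 9.82, 9.29 and 9.24 on the supplemented arrays, 9.97, 9.92, 10.51, 9.72 and 10.55 on the standard arrays, and 9.18, 9.78, 9.78 and 10.15 on the deficient arrays. Supplemented arrays 2, 4 and 5 and deficient array 11 were below every standard array, and the rest overlapped. Supplemented minus standard was -0.52 ± 0.22 (SE) and deficient minus standard -0.41 ± 0.24 (SE), with limma adjusted p of 0.521 and 0.999. The first was -0.32 without the 3 arrays that stood apart, and the second -0.23 without deficient array 11. Mgst1 and Mgst2 differed by at most 0.16 between any diets.

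The 9 probe sets of the other Gst classes had 8 lower means on the deficient than on the standard diet, with a median of -0.12, and 0 had an unadjusted p under 0.05 in any comparison. They comprise Gstk1 of peroxisomes and mitochondria, Gsto1, which works as a thioltransferase, the pi-class Gstp1, which rat hepatocytes hold at low levels until they become preneoplastic, and the theta-class Gstt1 and Gstt2. The range of deficient minus supplemented was -0.63 (Gstp1 probe set X02904cds_s_at) to 0.43 (Gstt1). Both Gstk1 probe sets were uncorrelated over the arrays (r = 0.012, rho 0.081, permutation p = 0.966, adjusted 0.984), as were both Gsto1 probe sets (r = 0.0062, rho 0.077, permutation p = 0.984, adjusted 0.984), so these pairs give no common level for their gene.

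Ugt1a5, a UDP-glucuronosyltransferase of the bilirubin and phenol family, had the largest difference of any member between the deficient and the supplemented diet. It read 6.72, 6.47, 5.88, 5.61 and 5.73 on the supplemented arrays, 4.63, 5.70, 5.19, 5.70 and 3.63 on the standard arrays, and 3.25, 4.22, 4.39 and 6.61 on the deficient arrays. Deficient arrays 11, 12 and 13 were below every supplemented array, but deficient array 14 was above 4 of them. Deficient minus supplemented was -1.46 ± 0.57 (SE), a 2.76-fold difference (limma adjusted p = 0.331), and supplemented minus standard was 1.11 ± 0.53 (SE), 2.16-fold (limma adjusted p = 0.548). The first was -0.52 with the beta-actin ratio and -0.42 with the Gapdh ratio as a covariate. Over the 14 arrays Ugt1a5 was lower where the Gapdh ratio was higher (r = -0.733, rho -0.855, permutation p = 0.00272, adjusted 0.0277 over 51 relations), with r of -0.557 within diets and -0.645 without the 2 arrays farthest from the median ratio. Arrays were permuted without regard to diet, and the ratio differed between diets, so that p does not separate the relation from the diet difference. The r within diets was not tested.

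The Ugt2 genes encode enzymes for steroids, bile acids and drugs. All 8 tested probe sets had lower means on the deficient than on the standard diet, with a median of -0.22, and higher means on the supplemented diet than on the standard one, with a median of 0.21. All 8 were lower in deficient minus supplemented, with a median of -0.37 and a range of -0.94 to -0.17, and 1 of them had an unadjusted p under 0.05. These directions depended on the scaling: with arrays centred on their median, 6 of 8 were lower for deficient minus standard, 6 of 8 higher for supplemented minus standard and 5 of 8 lower for deficient minus supplemented. As deposited, without quantile normalisation, the counts were 7, 7 and 8 of 8. With the Gapdh ratio as a covariate, 7 were lower, 5 higher and 6 lower in the same order. Without the 3 arrays that stood apart the counts were 5 lower, 5 higher and 6 lower, with medians of -0.38, 0.09 and -0.41.

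Ugt2b35 probe set U06273_i_at, the one with the small p, read 4.57, 5.39, 5.42, 4.75 and 5.56 on the supplemented arrays, 4.82, 5.77, 4.61, 5.18 and 4.25 on the standard arrays, and 4.25, 4.43, 4.40 and 4.54 on the deficient arrays. The 4 deficient arrays were close together and all below the supplemented arrays, the nearest by little, while the standard arrays spanned both. Deficient minus supplemented was -0.73 ± 0.30 (SE) and deficient minus standard -0.52 ± 0.30 (SE), with limma adjusted p of 0.335 and 0.999. With the Gapdh ratio in the model the first was -0.23, and without standard array 7 the second was -0.31. The second Ugt2b35 probe set, U06274_s_at, gave -0.29 ± 0.26 and -0.22 ± 0.26 (SE).

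Ugt2b1 read 9.04, 9.50, 9.42, 8.89 and 8.96 on the supplemented arrays, 8.82, 9.38, 8.70, 9.47 and 6.97 on the standard arrays, and 8.31, 7.20, 8.93 and 8.48 on the deficient arrays. Standard array 10 and deficient array 12 were far below the others, and deficient array 13 overlapped the supplemented range. Deficient minus supplemented was -0.93 ± 0.44 (SE), 1.91-fold (limma adjusted p = 0.385), and came to -0.59 without deficient array 12, -0.45 with the beta-actin ratio and -0.43 with the Gapdh ratio. It was larger, at -1.22, without the 3 arrays that stood apart and also with array weights. Without those 3 arrays deficient minus standard for Ugt2b1 moved from -0.44 to -1.10. Ugt2b15, whose product glucuronidates steroids, moved against the Gapdh ratio (r = -0.793, rho -0.814, permutation p = 0.00028, adjusted 0.011 over 51 relations). Its r was -0.800 within diets and -0.615 without the 2 arrays farthest from the median ratio. Its deficient minus supplemented difference was -0.46 ± 0.28 (SE). With the Gapdh ratio as a covariate that difference reversed to 0.26, and with the beta-actin ratio it was 0.005.

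Of the Sult1 genes, Sult1a1, the main sulfotransferase for simple phenols, read 11.62, 11.59, 11.59, 11.13 and 11.13 on probe set L19998_g_at on the supplemented arrays, 11.51, 11.54, 11.29, 11.02 and 11.25 on the standard arrays, and 10.95, 11.21, 10.77 and 11.30 on the deficient arrays. Deficient arrays 11 and 13 were below all others, and the other 2 deficient arrays lay within the range of both diets. Deficient minus supplemented was -0.35 ± 0.16 (SE) and deficient minus standard -0.27 ± 0.16 (SE), with limma adjusted p of 0.372 and 0.999. The first was -0.21 with the beta-actin ratio in the model and -0.06 with arrays centred on their median, and the second was -0.17 without deficient array 13. The other Sult1a1 probe set, L19998_at, gave -0.13 ± 0.21 and -0.18 ± 0.21 (SE).

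Sult1c3, of a subfamily known for sulfating N-hydroxy arylamines, read 6.97, 6.37, 5.21, 4.74 and 5.51 on probe set L22339_at on the supplemented arrays, 6.24, 7.14, 6.71, 6.14 and 6.92 on the standard arrays, and 5.82, 6.20, 6.55 and 6.77 on the deficient arrays. Supplemented arrays 3, 4 and 5 were below all other arrays, and supplemented arrays 1 and 2 were within the standard range. Supplemented minus standard was -0.87 ± 0.37 (SE), 1.83-fold (limma adjusted p = 0.518), and -0.29 ± 0.18 (SE) on the other Sult1c3 probe set, L22339_g_at. All 6 tested Sult1 probe sets had lower means on the deficient than on the standard diet, from -0.30 to -0.05, none at an unadjusted p under 0.05. Sult1b1, which sulfates thyroid hormones, differed by at most 0.13 between diets, and Sult1c2a by at most 0.15, with a within-diet SD of 0.99. Sult5a1 gave -0.65 ± 0.32 (SE) for deficient minus supplemented (limma adjusted p = 0.411).

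The Sult2a genes encode hydroxysteroid sulfotransferases, which sulfate bile acids and steroids such as dehydroepiandrosterone. All 9 tested probe sets had higher means on the supplemented arrays than on the standard arrays, with a median of 0.61 and a range of 0.27 to 0.86, and all 9 were lower in deficient minus supplemented, with a median of -0.52 and a range of -0.65 to -0.42. For deficient minus standard 5 were higher and 4 lower, with a median of 0.03. A probe set with both the Sult2a1 and the Sult2a6 symbol, rc_AI028836_at, which is no member and was singled out after its values were seen, ran the other way, at -0.33 ± 0.61 (SE) for supplemented minus standard and 0.79 ± 0.65 (SE) for deficient minus supplemented. It was dim, with a mean of 4.15 near the filter, and supplemented array 1 was at the floor. None of the 9 tested members had an unadjusted p under 0.05 in any comparison by limma. The directions against the supplemented diet were 9 of 9 under quantile normalisation, as deposited and with arrays centred on their median. With the Gapdh ratio as a covariate they were 9 of 9 higher and 8 of 9 lower, with medians of 0.45 and -0.51, and with the beta-actin ratio 9 of 9 and 7 of 9, with medians of 0.38 and -0.22.

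The Sult2a probe sets are not separate measurements of a diet effect. Of the 9, all but 1 carry the suffix _f_at, which Affymetrix gave to probe sets shared among similar sequences, and all pairs correlated over the 14 arrays, at r of 0.548 to 0.977 with a median of 0.819 and of 0.823 within diets. These correlations are descriptions of probe sets that share sequence and arrays. Supplemented array 3 held the highest signal of all 9, and standard array 10 the lowest of 6. Sult2a6 probe set X63410cds_f_at, chosen for display after its values were seen, read 10.83, 11.43, 12.24, 10.99 and 10.06 on the supplemented arrays, 10.71, 10.36, 10.89, 11.30 and 8.96 on the standard arrays, and 10.83, 9.72, 11.01 and 10.82 on the deficient arrays. The 3 diets overlapped, with a supplemented minus standard difference of 0.67 ± 0.44 (SE; limma adjusted p = 0.665) and a deficient minus supplemented difference of -0.52 ± 0.46 (SE; limma adjusted p = 0.647). Single arrays moved the group: the supplemented minus standard median was 0.29 without standard array 10, and the deficient minus supplemented median was -0.20 without supplemented array 3. Without the 3 arrays that stood apart the deficient minus supplemented median was -0.85, with 5 of 9 at an unadjusted p under 0.05. The share of all probe sets in that setting is not given here, and the 9 share sequence, so this count is no separate result. Without the same arrays the deficient minus standard median became -0.40, with 9 of 9 lower.

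**Figure D3:**
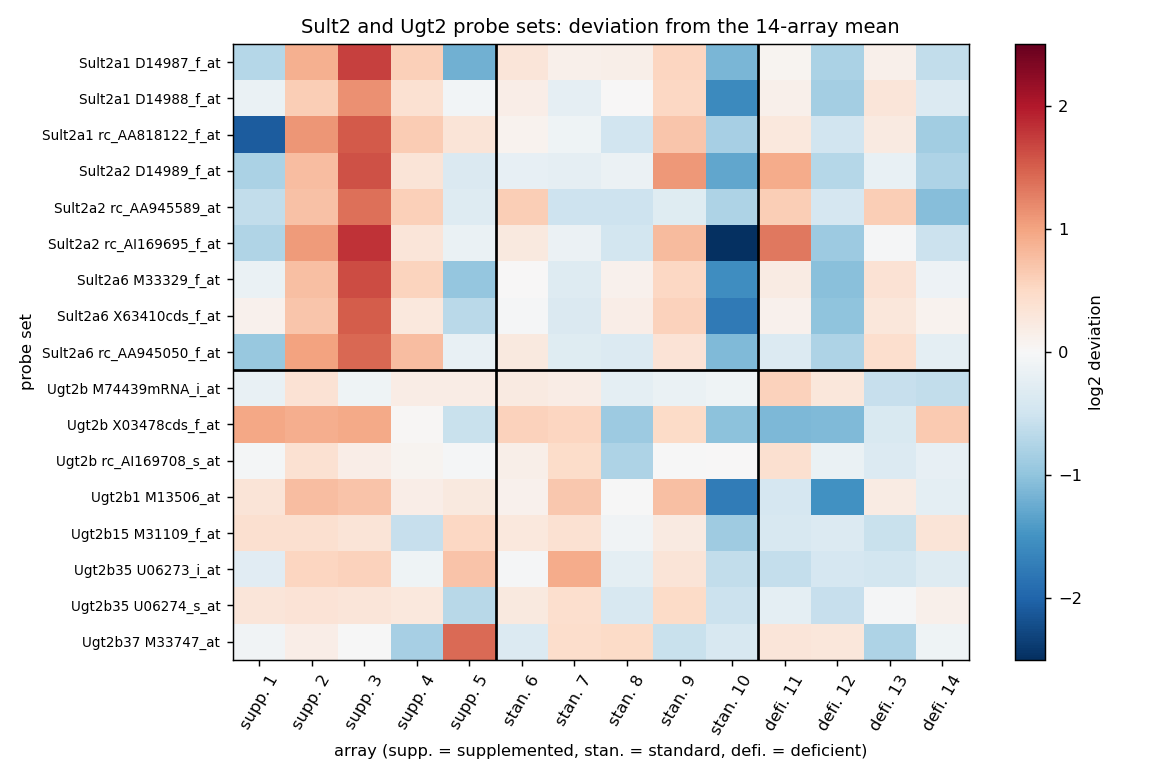
Deviation of each tested Sult2 (upper block) and Ugt2 (lower block) probe set from its own 14-array mean on the log2 scale (colour), with arrays as columns grouped by diet. The Sult2 rows share their colours along the arrays, with supplemented array 3 highest in all 9 and standard array 10 lowest in 6, while the Ugt2 rows are less alike.

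The Ugt2 probe sets moved together less, with pair correlations over the 14 arrays of -0.499 to 0.871 and a median of 0.399. Within 1 gene, probe sets also did not always follow each other: over 30 pairs of probe sets for 16 genes, the median r was 0.68. The lowest was -0.206 for a pair of Ugt2b probe sets, M74439mRNA_i_at and X03478cds_f_at (rho -0.292, permutation p = 0.474, adjusted 0.547). The family and shared-sequence probe sets of this array can read close relatives, so values of single Gsta, Gstm, Ugt2b and Sult2a genes are uncertain to that extent.

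Conjugation enzyme signals were set against both RNA quality ratios over the 14 arrays. The permutations did not keep to diets, so each p takes in differences between diets as well as those within them. The r within diets was not tested. Of 51 members, 36 correlated below 0 with the log2 Gapdh ratio, with a median r of -0.226, and 5 had an adjusted permutation p under 0.05 over the 51 relations: Ugt2b15, Ugt1a5, both Gsta1 probe sets with the small diet p-values, and a Gsta4 probe set. For Gsta1 X78848cds_f_at r was -0.747 and rho -0.860 (permutation p = 0.00155, adjusted 0.0263), with r of -0.492 within diets and -0.764 without the 2 arrays farthest from the median ratio. For Gsta4 X62660mRNA_g_at r was 0.721 and rho 0.759 (permutation p = 0.00043, adjusted 0.011), with 0.636 within diets and 0.803 without those 2 arrays. The 2 arrays left out were standard array 10 and deficient array 13. Supplemented array 5, where this Gsta4 probe set read 6.21, stayed in, so 0.803 does not show the relation without that array. With the Gapdh ratio as a covariate, limma gave an unadjusted p under 0.05 to 3 members for deficient minus standard, 0 for supplemented minus standard and 1 for deficient minus supplemented, where the model without it gave 2, 7 and 5. With the beta-actin ratio the counts were 3, 3 and 2. The shares of all probe sets in these covariate models are not given here, so the counts are no result about the members. Against the log2 beta-actin ratio 36 members also correlated below 0, with a median r of -0.282, and 6 had an adjusted permutation p under 0.05. These were Ugt2b15, Ugt1a5, Gsta1 X78848cds_f_at, and a Gstm1, a Gstp1 and a Ugt2b probe set. Gsta1 S72505_f_at (r = -0.46, adjusted permutation p = 0.254) and Gsta4 X62660mRNA_g_at (r = 0.288, adjusted permutation p = 0.467) did not pass there. Whether RNA quality accounts for the differences between diets was not tested.

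**Figure D4:**
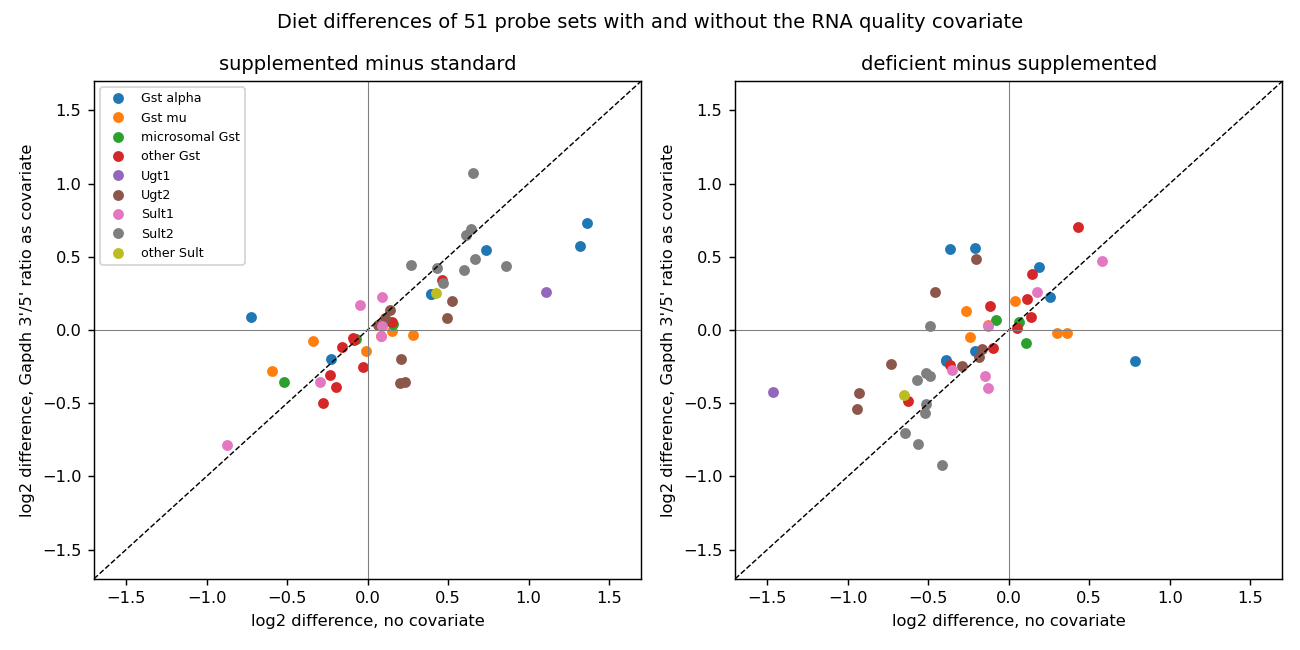
Diet differences (log2 scale) of the 51 tested probe sets without (horizontal axis) and with (vertical axis) the log2 Gapdh 3'/5' ratio as a covariate, coloured by enzyme group, with the line of equal values dashed. Ugt1a5 moves from -1.46 to -0.42 in deficient minus supplemented and Gsta3 S72506_s_at from 1.36 to 0.73 in supplemented minus standard, while the Sult2 points stay on the same side of 0 in supplemented minus standard.

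Genes that supply the donors or act beside these enzymes were taken from lists, with 1 probe set for each gene, and limma called 0 of them in any comparison. Of all probe sets, limma gave 3.00% an unadjusted p under 0.05 for deficient minus standard. It gave 8.90% for supplemented minus standard and 12.9% for deficient minus supplemented. For the sulfate donor and desulfation list, 9 of 12 genes were tested, and for deficient minus supplemented 6 were higher and 3 lower. Papss2, which makes the donor PAPS, was the 1 gene of the list with an unadjusted p under 0.05, at 0.38 ± 0.17 (SE). Of the glutathione supply list 10 of 15 genes were tested, with 5 higher and 5 lower in deficient minus supplemented. Its 2 genes with the smallest p there were Gclc, the catalytic subunit of the rate-limiting enzyme of glutathione synthesis, at -1.01 ± 0.40 (SE), and Cbs, which opens the transsulfuration route to cysteine, at 0.43 ± 0.19 (SE). Cbs was also the 1 gene with an unadjusted p under 0.05 for deficient minus standard, at 0.44 ± 0.19 (SE). Only 2 of 6 UDP-glucuronate supply genes were tested, and these were 1 higher and 1 lower in every comparison, with medians between -0.01 and 0.01.

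Among 11 tested transporters of conjugates of 19 listed, 7 were higher and 4 lower for supplemented minus standard, with a median of 0.32. Of the 11, 4 had an unadjusted p under 0.05, against 8.90% of all probe sets. Abcb11, the bile salt export pump, was at 0.57 ± 0.20 (SE) and Slc22a7, an organic anion transporter, at -0.48 ± 0.17 (SE). For deficient minus supplemented Abcc6 was at 0.58 ± 0.19 (SE) and Slc22a7 at 0.46 ± 0.19 (SE). Of the other conjugating enzymes 8 of 18 were tested, 7 of them lower for deficient minus standard, with a median of -0.28 and none at an unadjusted p under 0.05. For supplemented minus standard the methyltransferases Gnmt and Gamt were at -0.63 ± 0.25 and -0.43 ± 0.20 (SE), and for deficient minus supplemented the arylamine acetyltransferase Nat1 was at -0.66 ± 0.29 (SE).

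Hydrolases and reductases of the same substrates gave 15 tested genes of 20, with 4 higher and 11 lower for deficient minus standard. Akr7a2, an aldehyde reductase, was at -0.41 ± 0.17 (SE) for supplemented minus standard, and Aldh3a1, an aldehyde dehydrogenase, at -0.76 ± 0.27 (SE) for deficient minus supplemented. Of 23 regulators 16 were tested, 6 higher and 10 lower for both deficient minus standard and deficient minus supplemented. Nr3c1, the glucocorticoid receptor, had the smallest p of the list, at -0.83 ± 0.26 (SE) for supplemented minus standard and 0.91 ± 0.27 (SE) for deficient minus supplemented, with limma adjusted p of 0.479 and 0.263. Its supplemented arrays, from 4.44 to 5.30, did not overlap those of either other diet. Ppara, the fatty acid sensing receptor, was at -0.69 ± 0.28 (SE) for supplemented minus standard.

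Marker genes of other cells were read on the same arrays. For Kupffer cells and macrophages 7 of 10 genes were on the array and none was at the floor throughout. Their summed signal was 1250 to 1930 units on the supplemented arrays, 1100 to 1490 on the standard arrays and 1200 to 1510 on the deficient arrays. All 6 tested had higher means on the supplemented arrays than on the standard arrays, with a median of 0.32 and Clec4f at 0.37 ± 0.15 (SE). The bile duct sum over 6 of 8 genes was 161 to 263, 158 to 248 and 185 to 392 units in the order supplemented, standard and deficient, with Ggt1 at the floor on all arrays. The pancreas sum over 6 of 6 genes was 457 to 737, 381 to 638 and 349 to 453, with Prss1 at the floor on all arrays and Ins2 at -0.99 ± 0.33 (SE) for deficient minus supplemented. The fat and muscle sum over 6 of 7 genes was 410 to 1000, 455 to 553 and 329 to 502, with Acta1 at the floor throughout. Endothelial, stellate and red blood cell markers had 0 genes with an unadjusted p under 0.05 in any comparison, and the part of other cells in the differences of the conjugation enzymes was not tested.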

How the data were processed

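The data are 1 deposited table of microarray intensity values, linear probe set signals of 14 rat liver arrays; what software made them is not given in the sources used here. Every array had a mean of 150.3 units after 2% was trimmed at each end, so the authors' values carry a common scaling. Array medians as deposited differed by 1.91 times, above the 1.5 set as limit, and arrays were quantile normalised over the 8740 probe sets other than 59 controls, floored and put on the log2 scale. Floor and filter left 5132 probe sets of 3073 genes; 1 with the same value on every array was left out. Probe sets with several symbols, or with a symbol listed in duplicate, named no gene. The members and gene lists were chosen with earlier results of these data known.

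Differences were fitted with limma 3.58.1 (R 4.3.3; lmFit, eBayes with a trend) in 1 model of the 3 diets and adjusted by Benjamini-Hochberg over all 5132 probe sets; the procedure was tested on simulated data. All tests are 2-sided. Fold changes are on the floored log2 scale and understate changes of dim probe sets. Differences with values on each array are given for the 6 members with the smallest p in each comparison, members with an F-test p under 0.05, and members whose arrays do not overlap between diets; other genes of the pathway are limited to the 2 with the smallest p under 0.05 in each list. Correlations used 100000 permutations (scipy 1.17.1), and promoter windows were aligned with biopython 1.88. With no detection calls, a dim signal may or may not lie above background. Precision is limited by how few arrays there are.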

Additional observations from a re-analysis of the deposited data

Results flagged for a closer look

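In 57 groups of 4 or 5 arrays, which cover the probe sets and array measures given by array, 5 held a sample far from the rest of its diet, where chance gives about 1 in 20. Several of these probe sets were added because their values had drawn attention, so the number of such groups is not a fair count. Gsta3 probe set S72506_s_at read 7.28 on the log2 scale on supplemented array 5, where the other supplemented arrays read 5.49 to 5.89. Gsta4 probe set X62660mRNA_g_at read 6.21 on the same array, below 8.88 to 9.21 on the other supplemented arrays, a gap of 0.888 of the range. The other Gsta4 probe set, X62660mRNA_at, read 8.17 on standard array 7, above 7.71 to 7.83 on the other standard arrays. Sult2a6 probe set X63410cds_f_at read 9.72 on deficient array 12, below 10.82 to 11.01 on the other deficient arrays. Ugt2b15 read 9.97 on supplemented array 4, below 10.87 to 11.08 on the other supplemented arrays.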

How the results depend on the processing

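No paired analysis was possible because the array numbers run on from diet to diet and none is shared. No conjugation enzyme probe set was called by limma under any alternative. The 19 named differences kept their direction in all 489 alternative values. They were chosen for small p-values or separated arrays in these same data, so kept directions are no independent support. The lowest limma adjusted p of those values was 0.0793 (Ugt1a5, deficient minus supplemented, without deficient array 14, with a highest over its alternatives of 1). Other differences given above reversed with the Gapdh ratio as a covariate. Among them, Gsta4 X62660mRNA_g_at went from -0.73 to 0.09 for supplemented minus standard, and Ugt2b15 from -0.46 to 0.26 for deficient minus supplemented. The median member difference for deficient minus supplemented was 0.020 with arrays centred on their median and -0.036 with the beta-actin ratio as a covariate, and for supplemented minus standard it was 0.011 with centred arrays; centring moves all probe sets, and for the covariate the cause was not tested. Leaving out 1 array gave medians of -0.11 to -0.02 for deficient minus standard, 0.07 to 0.22 for supplemented minus standard and -0.28 to -0.15 for deficient minus supplemented. Members with an unadjusted p under 0.05 for deficient minus supplemented, 5 in the main model, numbered 12 without the 3 arrays that stood apart, 13 with array weights, 3 with centred arrays or a filter at the 60th percentile, 2 without deficient array 11, and 8 without supplemented array 1 or 5 or deficient array 14. For supplemented minus standard, 7 in the main model, they numbered 1 without the 3 arrays, 3 without standard array 10, 4 without supplemented array 4, and 11 without supplemented array 1 or standard array 9. For deficient minus standard, 2 in the main model, they numbered 1 with a filter at the 60th percentile or without deficient array 11. They numbered 4 without deficient array 14, and 0 without deficient array 13 or standard array 7. The shares of all probe sets under these settings are not given here, so these counts are no result about the conjugation enzymes.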

Other observations

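Of the probe sets left out because they carry several gene symbols, 12 match several Ugt1a forms and 8 of those were tested. Supplemented minus standard was higher for 7 of the 8, with a median of 0.48, and deficient minus supplemented was lower for 7, with a median of -0.74 and a range of -1.09 to 0.11. In the latter comparison limma gave 3 of 8 an unadjusted p under 0.05, against 12.9% of all probe sets, and called 0. These 8 match several of the same forms, so they are not separate measurements. Probe set S56937_s_at, chosen after its values were seen, read 9.70, 9.40, 9.49, 9.57 and 10.40 on the supplemented arrays, 9.19, 9.36, 8.89, 9.39 and 7.67 on the standard arrays, and 8.17, 7.95, 8.69 and 10.01 on the deficient arrays. Deficient array 14 was the highest of its diet there, as it was for Ugt1a5, and standard array 10 the lowest of its own. Probe set J05132_s_at ran the other way, at 0.11 ± 0.16 (SE) for deficient minus supplemented. Single forms cannot be told apart in these probe sets.

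The remaining probe sets left out by the rule of a single symbol entry were all tested, and limma called 0 of them in any comparison. The 2 that carry the Gsta5 and Gsta2 symbols were lower for supplemented minus standard, at -0.27 ± 0.23 and -0.33 ± 0.59 (SE), and higher for deficient minus supplemented, at 0.18 and 0.26. Of 6 Sult probe sets, 3 were higher and 3 lower for supplemented minus standard, with a median of -0.11 and a range of -1.26 to 0.58, and 3 were higher and 3 lower for deficient minus supplemented, with a median of -0.03 and a range of -0.78 to 0.86. Of these 6, 3 carry the Sult2a1 and Sult2a6 symbols: M31363mRNA_f_at and rc_AA817987_f_at were lower for deficient minus supplemented, at -0.78 and -0.25, and rc_AI028836_at was higher, at 0.79. The first 2 had mean signals of 10.33 and 9.20, and rc_AI028836_at one of 4.15, with supplemented array 1 at the floor. The 2 probe sets of Sult1e1, an estrogen sulfotransferase, stood at -1.26 ± 1.06 and -1.11 ± 1.23 (SE) for supplemented minus standard. Their platform entries list that symbol in duplicate, so the rule left them out although they name a single gene symbol. Their within-diet SDs were 1.95 and 2.27, above that of any tested member. Probe set Y00156cds_f_at, with the Ugt2b15 and Ugt2b37 symbols, stood at 0.51 ± 0.29 (SE) for supplemented minus standard and -0.77 ± 0.31 (SE) for deficient minus supplemented, the latter with an unadjusted p under 0.05 and a limma adjusted p of 0.335.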
